A study of Homo sapiens with 6 samples.

Results

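The 10 genes described here encode the cyclins and cyclin-dependent kinases (CDKs) that drive the cell cycle, namely CCND1, CCND3, CDK4, CCNE1, CCNE2, CDK2, CCNA2, CCNB1, CCNB2 and CDK1. They were chosen by symbol from the 55765 gene symbols counted in C4-2 cells, and all 10 passed the filter on low counts, among 16835 genes tested. The cells are C4-2, a castration-resistant human prostate cancer line derived from LNCaP, and were grown in medium with serum. For 72 h, 3 samples received 1 nM of the synthetic androgen R1881, a supraphysiological androgen level (SAL), and 3 received the solvent DMSO, with replicates numbered 1 to 3 in each group. RNA-seq reads were counted per gene, and the study describes the 3 replicates of each condition as independent. The comparison asks which mRNAs change when CRPC cells are exposed to SAL.

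A CDK is active only when a cyclin is bound to it. D-type cyclins with CDK4 or CDK6 start the phosphorylation of the retinoblastoma protein in G1, E-type cyclins with CDK2 carry cells into S phase, cyclin A2 acts in S and G2 phase, and B-type cyclins with CDK1 drive mitosis. The D-type cyclins respond to growth signals and the transcripts of cyclins A2, B1 and B2 and of CDK1 are made mostly in G2 phase, through promoters that hold CCAAT boxes bound by NF-Y and a cell cycle homology region (CHR) bound by the DREAM and MYB-MuvB complexes.

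After rRNA genes were removed, the libraries held between 6931042 and 9776990 counts. The members had from 51 counts (CCND3 in DMSO replicate 1) to 5798 counts (CDK1 in DMSO replicate 1) per library. Levels are given as CPM, the count of a gene relative to the TMM-scaled size of its library. SAL was tested against DMSO with edgeR and the replicate number as a block, and a Benjamini-Hochberg adjusted p under 0.05 over all genes tested made a gene a DEG (differentially expressed gene). SE is the standard error of the log2 fold change. The treatment was visible in the androgen-induced genes KLK3, FKBP5 and TMPRSS2, with log2 fold changes of 1.21, 3.36 and 2.07. All 6 luminal prostate markers were detected, summing to 12434 to 15508 counts in the DMSO libraries and 14539 to 29044 in those with SAL. The immune markers had 1 to 4 counts together in each DMSO library and 1 to 3 under SAL, with 2 of the 3 at 0 in every library. The 2 endothelial markers summed to 4 to 27 and 5 to 35, with 1 at 0 in every library, and the 3 fibroblast markers to 21 to 79 and 19 to 88.

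The promoters of the members are shown because CCAAT boxes and the CHR, named above, lie there. RefSeq (GRCh38.p14) gave 250 bases before to 50 after the transcription start for 7 of the 10 genes, with 2 starts for CDK1 and 3 for CCND3. CCND1, CCNE2 and CDK2 had no entry. In the sequences below, written 5′ to 3′ on the strand of the gene, capitals mark CCAAT boxes (CCAAT), CHR matches (TTTGAA or CTTGAA) and E2F matches (TTTCCCGC, TTTGGCGC, TTTCGCGC or TTTGCCGC), each on either strand. They are, in this order, CCNA2 (chr4:121823834-121824133, minus strand), CCNB1 (chr5:69166900-69167199, plus strand), CCNB2 (chr15:59104896-59105195, plus strand), the second start of CDK1 (chr10:60778228-60778527, plus strand), and, as promoters without a match, CDK4 (chr12:57752261-57752560, minus strand) and CCNE1 (chr19:29811741-29812040, plus strand).
CCNA2: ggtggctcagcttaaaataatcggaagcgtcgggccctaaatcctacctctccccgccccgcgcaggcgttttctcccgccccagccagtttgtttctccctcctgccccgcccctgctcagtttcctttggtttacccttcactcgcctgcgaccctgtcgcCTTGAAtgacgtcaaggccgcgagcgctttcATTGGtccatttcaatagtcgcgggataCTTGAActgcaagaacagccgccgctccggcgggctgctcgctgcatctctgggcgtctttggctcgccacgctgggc
CCNB1: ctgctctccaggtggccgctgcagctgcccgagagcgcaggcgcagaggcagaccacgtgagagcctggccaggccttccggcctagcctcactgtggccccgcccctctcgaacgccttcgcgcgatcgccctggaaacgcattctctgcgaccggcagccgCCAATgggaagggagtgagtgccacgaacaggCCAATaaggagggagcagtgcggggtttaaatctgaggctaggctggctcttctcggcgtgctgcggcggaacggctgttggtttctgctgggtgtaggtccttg
CCNB2: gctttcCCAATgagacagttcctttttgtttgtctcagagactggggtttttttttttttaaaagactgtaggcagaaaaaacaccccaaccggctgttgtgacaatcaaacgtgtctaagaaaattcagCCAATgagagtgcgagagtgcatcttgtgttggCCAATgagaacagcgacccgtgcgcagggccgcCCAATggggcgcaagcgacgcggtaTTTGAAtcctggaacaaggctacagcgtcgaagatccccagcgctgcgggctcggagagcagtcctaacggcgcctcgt
CDK1: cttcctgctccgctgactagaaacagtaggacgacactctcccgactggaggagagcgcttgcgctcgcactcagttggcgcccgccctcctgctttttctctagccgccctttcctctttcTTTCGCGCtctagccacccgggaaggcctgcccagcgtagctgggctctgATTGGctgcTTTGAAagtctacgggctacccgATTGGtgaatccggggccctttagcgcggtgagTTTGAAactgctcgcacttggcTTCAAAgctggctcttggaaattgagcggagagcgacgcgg
CDK4: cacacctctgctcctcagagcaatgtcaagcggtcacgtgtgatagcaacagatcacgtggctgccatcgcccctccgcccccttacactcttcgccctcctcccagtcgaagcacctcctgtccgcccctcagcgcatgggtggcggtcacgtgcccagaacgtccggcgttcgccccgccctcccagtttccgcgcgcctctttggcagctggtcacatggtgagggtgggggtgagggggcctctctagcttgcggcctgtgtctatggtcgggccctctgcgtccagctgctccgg
CCNE1: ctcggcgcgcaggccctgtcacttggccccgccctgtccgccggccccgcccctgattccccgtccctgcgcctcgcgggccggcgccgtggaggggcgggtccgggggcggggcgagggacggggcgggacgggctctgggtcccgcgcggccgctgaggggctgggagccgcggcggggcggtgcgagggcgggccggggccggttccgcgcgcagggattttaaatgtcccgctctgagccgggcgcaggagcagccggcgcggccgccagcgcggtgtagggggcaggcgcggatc

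CCNB2 held 4 CCAAT boxes, CCNB1 and the second CDK1 start held 2 each, and CCNA2 held 1, against none in CDK4 and CCNE1. The first CDK1 start held 1, and of the 3 starts of CCND3, a gene whose change did not pass the test, 2 held 1 each, 136 and 64 bases before the start. Of 34796 different promoters of this length, 34.6% held at least 1 CCAAT box and 10.8% held 2 or more. Neighbouring CCAAT boxes began 32 bases apart in CCNB1 and CDK1 and 33 bases apart at both of the inner intervals of CCNB2, and boxes 31 to 34 bases apart occurred in 1.3% of all promoters, an interval chosen after these sequences had been seen. A CHR match began 29 bases before the start of CCNB2, 28 and 87 bases before that of CCNA2 and 13 and 69 bases before the second start of CDK1, with another match after the start, while 23.9% of all promoters held one. CCNB1 had no match to these CHR letters. The E2F letters matched only in CDK1 among the 7 genes and in 3.3% of all promoters. The half-site of the androgen response element (AGAACA, either strand) was found in CCNA2 and CCNB2 and in 14.8% of all promoters. These are matches of letters, and binding was not measured.

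**Figure D1:**
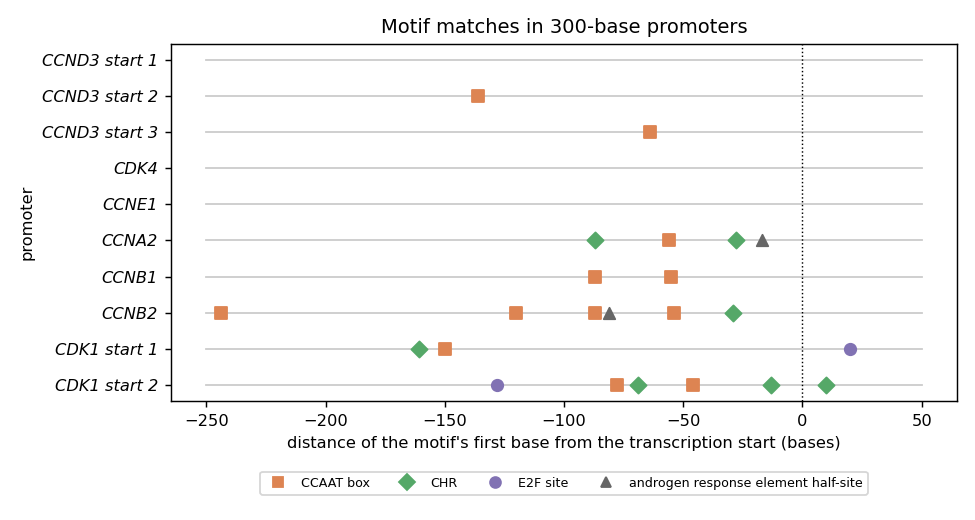
Motif matches in the 300-base promoters of 7 genes, with the distance of the first base of each match from the transcription start (bases) on the horizontal axis and 1 line per promoter; markers show the kind of motif. CCNA2, CCNB1, CCNB2 and the second start of CDK1 each hold at least 1 CCAAT box, as do the first start of CDK1 and 2 of the 3 starts of CCND3, and CDK4 and CCNE1 hold no match.

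Under SAL, 7 of the 10 genes were down-regulated DEGs and none was up-regulated. Of all genes tested, 9.37% were down-regulated DEGs and 11.5% were up-regulated. The members were chosen with earlier results of these data known, so their counts describe these data and are not independent of them. The mitotic and S phase genes fell most, CCNA2 by 2.04-fold, CCNB1 by 1.74-fold, CCNB2 by 1.59-fold and CDK1 by 1.48-fold. CCNE2, CDK2 and CDK4 fell by 1.40-fold, 1.39-fold and 1.32-fold. For CCND1, CCND3 and CCNE1 no change passed the test. The median log2 fold change of the 10 genes was -0.48 (range -1.03 to 0.16), and that of all genes was -0.0011. In bulk RNA, fewer cells in a phase of the cycle and less RNA per cell cannot be told apart. All 7 DEGs were lower in SAL in each of the 3 pairs, as were 25.3% of all genes tested, but for none of the 10 did the levels of the groups separate, whereas those of 7.51% of all genes did (3.73% with SAL lower and 3.78% with SAL higher). CCND1 was higher in all 3 pairs, as were 25.9% of all genes. Without the replicate block none of the 10 was a DEG, with log2 fold changes of the 7 between -0.99 and -0.41, and over all genes there were 3 down-regulated and 18 up-regulated DEGs. With DESeq2 and the block there were 5, without CDK4 and CCNE2, and without replicate 3 only CCNA2, CCNB1 and CCNB2 were left.

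**Figure D2:**
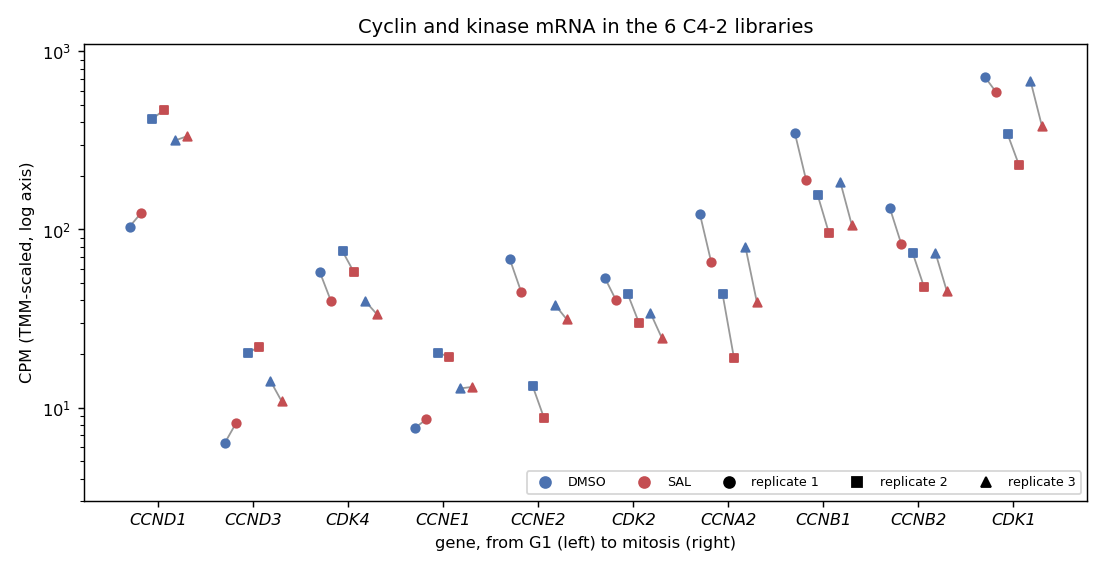
CPM of each gene (log axis) in the 6 libraries, with DMSO and SAL of the same replicate number joined by a line and the replicate number shown by the marker. In CDK4, CCNE2, CDK2, CCNA2, CCNB1, CCNB2 and CDK1 each of the 3 lines descends, although the DMSO and SAL levels overlap between replicates.

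Cyclin A2, the partner of CDK2 in S phase, changed most. CCNA2 (chromosome 4, 122737599 to 122745038 in GRCh37) had 123, 43.3 and 80.0 CPM in DMSO replicates 1, 2 and 3 and 65.7, 18.97 and 39.3 CPM in the SAL replicates. Each SAL library was below its DMSO partner, but SAL replicate 1 was above DMSO replicate 2. The mean was 82.1 ± 39.8 CPM in DMSO and 41.3 ± 23.4 CPM in SAL (SD, n = 3), with a log2 fold change of -1.03 (SE 0.10, edgeR adjusted p = 3.88e-06). The pairs fell by 0.90, 1.18 and 1.02 on the log2 scale, and 2.22% of all genes tested had a lower log2 fold change. It was the only member past a log2 fold change of 1 in size. Its exons overlap 254 bases of EXOSC9, an exosome gene on the other strand, which had a log2 fold change of -0.36 (edgeR adjusted p = 0.0742, and 0.0214 without replicate 2) and a rise of 0.0032 in pair 2, where CCNA2 fell most.

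Cyclins B1 and B2, whose complexes with CDK1 bring cells into mitosis, fell by like amounts. CCNB1 (chromosome 5, 68462962 to 68474072 in GRCh37) had 349, 156 and 184 CPM in the DMSO replicates and 189, 95.3 and 106 CPM in the SAL replicates. The high library of each group was replicate 1, and SAL replicate 1 exceeded DMSO replicates 2 and 3. The log2 fold change of CCNB1 was -0.80 (SE 0.09, edgeR adjusted p = 1.54e-05), with -0.89, -0.71 and -0.79 in the pairs. CCNB2 (chromosome 15, 59397325 to 59417244 in GRCh37) had 132, 74.0 and 74.0 CPM in the DMSO replicates and 83.1, 47.6 and 45.1 CPM in the SAL replicates. Here too SAL replicate 1 lay above DMSO replicates 2 and 3. Its log2 fold change was -0.67 (SE 0.09, edgeR adjusted p = 0.000105), with -0.67, -0.63 and -0.71 in the pairs, the narrowest spread over pairs among the 10 genes. Within a library, where no scaling is needed, CCNB1 had 2.64, 2.12 and 2.48 counts for each count of CCNB2 in DMSO and 2.27, 2.00 and 2.35 in SAL. This ratio was lower in all 3 pairs, by 0.13 on the log2 scale on average (SD of the pairs 0.08), which an exact two-sided permutation test within pairs cannot place past the threshold (p = 0.25, the smallest it allows, adjusted p = 0.5 over 4 ratios).

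CDK1, the kinase of mitosis, was the most abundant member, above 98.8% of all genes tested in mean level. CDK1 (chromosome 10, 62538089 to 62554610 in GRCh37) had 718, 342 and 685 CPM in DMSO and 589, 229.6 and 382 CPM in SAL. Both replicates 2 were low, so SAL replicates 1 and 3 lay above DMSO replicate 2. The log2 fold change was -0.57 (SE 0.11, edgeR adjusted p = 0.00154). The pairs differed, with -0.29, -0.58 and -0.84, and without replicate 3 the change was -0.43 (adjusted p = 0.183). The CDK1 to CDK2 count ratio was 13.4, 7.85 and 20.1 in DMSO and 14.8, 7.67 and 15.5 in SAL. It rose in 1 pair and fell in 2, a mean of -0.09 on the log2 scale (SD of the pairs 0.26, exact permutation test within pairs, p = 0.75), with 0.05 when replicate 3 was left out.

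CDK2, the kinase of cyclins E and A, fell by similar amounts in the pairs. CDK2 (chromosome 12, 56360565 to 56366573 in GRCh37) had 53.6, 43.6 and 34.1 CPM in DMSO and 39.96, 29.9 and 24.6 CPM in SAL. It had the smallest spread between replicates of the 10 genes, and SAL replicate 1 still exceeded DMSO replicate 3. The log2 fold change was -0.48 (SE 0.11, edgeR adjusted p = 0.00563), with -0.42, -0.54 and -0.46 in the pairs. Without replicate 3 its adjusted p was 0.105. PMEL, which overlaps 89 bases of its exons on the other strand, had 6 to 38 counts per library and a log2 fold change of 0.22 (edgeR adjusted p = 0.761), and -0.27 without replicate 2. A larger overlap, of 565 bases or 14.5% of the merged CDK2 exons, is with a gene without a symbol on the other strand, which was not matched.

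Of the E-type cyclins, which activate CDK2, CCNE2 was a DEG and CCNE1 was not. CCNE2 (chromosome 8, 95891998 to 95908906 in GRCh37) had 68.3, 13.3 and 37.5 CPM in DMSO and 44.7, 8.77 and 31.3 CPM in SAL. Its level varied more between replicates than with treatment, and replicate 2 was lowest in both groups. The log2 fold change of CCNE2 was -0.48 (SE 0.12, edgeR adjusted p = 0.0120), with -0.61, -0.58 and -0.26 in the pairs. CCNE1 (chromosome 19, 30302898 to 30315219 in GRCh37) had 7.68, 20.4 and 12.8 CPM in DMSO and 8.58, 19.3 and 13.1 CPM in SAL. In CCNE1 replicate 2 was highest in both groups, and each pair lay close together. Its log2 fold change was 0.02 (95% interval -0.32 to 0.37, adjusted p = 0.949), and changes within this interval were not excluded. CCNE2 counts for each CCNE1 count were 8.89, 0.651 and 2.93 in DMSO and 5.21, 0.455 and 2.40 in SAL, lower in all 3 pairs, by 0.53 on the log2 scale on average (SD of the pairs 0.24, exact permutation test within pairs, p = 0.25, the smallest it allows). CCNE1 was therefore the more counted of the pair in replicate 2 and CCNE2 in replicates 1 and 3. The CCNE2 call was lost with DESeq2 (adjusted p = 0.0538), without replicate 1 (adjusted p = 0.0751) and without replicate 3 (adjusted p = 0.0627). INTS8 on the other strand, which shares 37% of the merged CCNE2 exons, had a log2 fold change of -0.31 (edgeR adjusted p = 0.0466). Reads lying only on bases shared by the counted exons of both genes entered neither count. The INTS8 call was lost with DESeq2 (adjusted p = 0.125), without robust estimation (adjusted p = 0.0540), with at least 10 counts in every library (adjusted p = 0.0511), without replicate 2 (adjusted p = 0.187) and without replicate 3 (adjusted p = 0.313).

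Of the 3 genes of G1, CDK4, the kinase that phosphorylates the retinoblastoma protein, passed the test. CDK4 (chromosome 12, 58141510 to 58149796 in GRCh37) had 57.9, 75.5 and 39.6 CPM in DMSO and 39.4, 57.6 and 33.5 CPM in SAL. Each SAL library was below its partner, and SAL replicate 2 lay close to DMSO replicate 1 and above DMSO replicate 3. The log2 fold change was -0.40 (SE 0.11, edgeR adjusted p = 0.0145), with -0.55, -0.39 and -0.24 in the pairs. It was not a DEG with DESeq2 (adjusted p = 0.0672) or without replicate 3 (adjusted p = 0.104). TSPAN31, which lies on the other strand and shares 44.2% of the merged exons of CDK4, went the other way, with a log2 fold change of 0.50 (edgeR adjusted p = 0.0240). TSPAN31 lost its call with DESeq2, without replicate 1 and without replicate 3 (adjusted p = 0.120, 0.109 and 0.124).

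Cyclin D1, the growth signal sensor of the cycle, was higher in SAL in each pair by a small amount that did not pass the test. CCND1 (chromosome 11, 69455924 to 69469242 in GRCh37) had 104, 418 and 316 CPM in DMSO and 124, 469.6 and 333 CPM in SAL. Replicate 1 was far below the others in both groups. The log2 fold change was 0.16 (95% interval -0.03 to 0.36, adjusted p = 0.237), with 0.25, 0.17 and 0.07 in the pairs. CCND3 (chromosome 6, 41902672 to 42018095 in GRCh37), another D-type cyclin, had 6.32, 20.2 and 14.2 CPM in DMSO and 8.20, 21.9 and 10.8 CPM in SAL. It rose in pairs 1 and 2 and fell in pair 3, with a log2 fold change of 0.02 (95% interval -0.36 to 0.40, adjusted p = 0.966). CCND1 had 16.4 to 22.3 counts for each CCND3 count in DMSO and 15.1 to 30.7 in SAL, a mean difference of 0.13 on the log2 scale (SD of the pairs 0.30, exact permutation test within pairs, p = 0.75), which was -0.04 without replicate 3. The exons of CCND1 overlap those of ORAOV1 (LTO1) on the other strand over 497 bases, and ORAOV1 had a log2 fold change of -0.20 (edgeR adjusted p = 0.407).

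**Figure D3:**
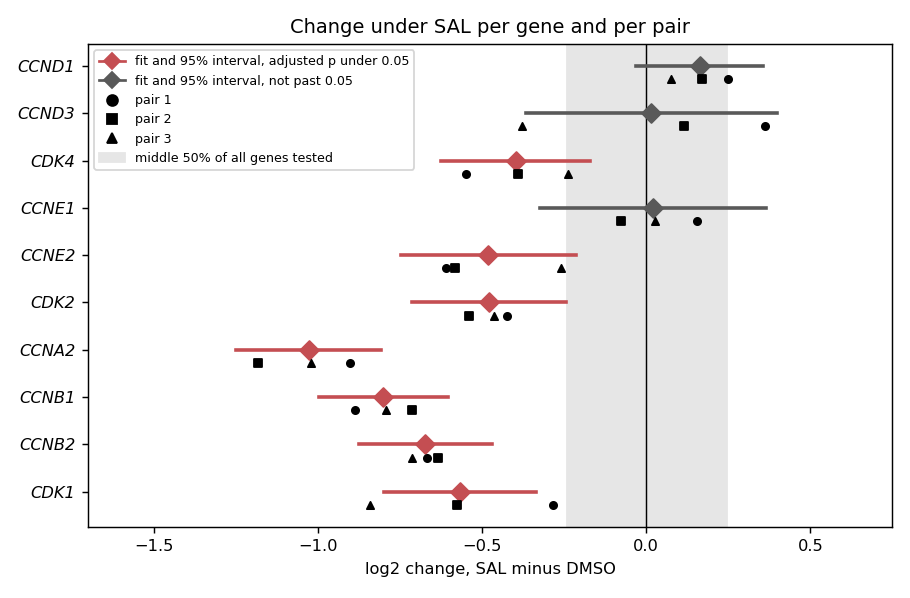
Log2 change of SAL minus DMSO for each gene on the horizontal axis, as the edgeR value with its 95% interval (diamond and line, red where the adjusted p was under 0.05) and in each of the 3 pairs (black markers); the grey band holds the middle 50% of all genes tested, from -0.24 to 0.25. The intervals of CCNA2, CCNB1, CCNB2 and CDK1 lie wholly below the band, and that of CDK2 only just (upper end -0.2429, band from -0.2403). Those of CCND1, CCND3 and CCNE1 include 0.

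The replicate number went with most of the variation of each gene. Its share of the total squared deviation of log2 CPM was 56.9% in CDK2, the lowest share, and 99.1% in CCNE1, the highest. Treatment accounted for 37.03% in CCNA2, 42.3% in CCNB1, 41.9% in CCNB2 and 42.7% in CDK2, for 23.5% in CDK4, 22.7% in CDK1 and 5.74% in CCNE2, and for 0.95% in CCND1, 0.11% in CCNE1 and 0.067% in CCND3. The replicates divided the members into opposed sets, a description with no test. Averaged over both treatments, replicate 2 exceeded replicate 1 by 3.90-fold in CCND1, 2.91-fold in CCND3, 2.44-fold in CCNE1 and 1.37-fold in CDK4. Replicate 1 exceeded replicate 2 by 5.13-fold in CCNE2, 3.03-fold in CCNA2, 2.29-fold in CDK1, 2.14-fold in CCNB1, 1.77-fold in CCNB2 and 1.27-fold in CDK2. For all members but CDK4 and CDK2, these gaps between replicates 1 and 2 exceeded the change under SAL in every pair. Library composition moved with the replicate number too. Of all gene counts, rRNA took 27.7% in DMSO replicate 1 and 27.8% in SAL replicate 1, but 18.6% and 21.99% in replicates 2 and 11.9% and 17.4% in replicates 3, and the part of rRNA and library composition in these differences was not tested.

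**Figure D4:**
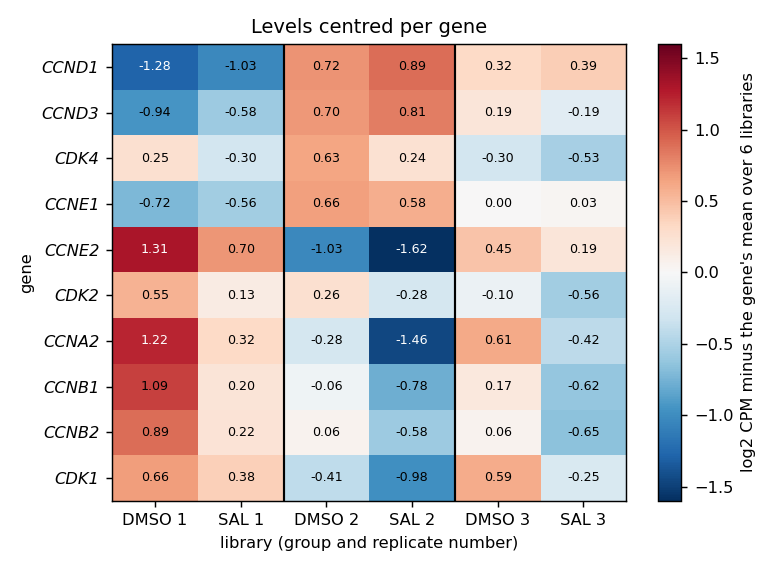
Log2 CPM of each gene (rows) minus its mean over the 6 libraries (columns, ordered by replicate number), with red above and blue below the mean and the value in each cell. CCND1, CCND3 and CCNE1 are below their mean in both libraries of replicate 1 and above it in both of replicate 2, and CCNE2 shows the opposite.

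Per length, CDK1 had the highest level and CCND3 the lowest in both groups. Divided by the length of the merged exons, CDK1 was at 149 ± 53.2 CPM per kb in DMSO and 102 ± 46.2 in SAL (SD, n = 3). In DMSO it was followed by CCNB1 (94.4 ± 42.8), CCND1 (58.7 ± 33.6), CCNB2 (33.9 ± 12.2), CCNA2 (29.9 ± 14.5), CDK4 (18.6 ± 5.81), CDK2 (11.3 ± 2.52), CCNE2 (9.03 ± 6.27), CCNE1 (5.54 ± 2.59) and CCND3 (2.36 ± 1.21), all in CPM per kb. Only 3 neighbours in this order differed by more than the larger of their SDs, CDK1 from CCNB1, CDK4 from CDK2 and CCNE1 from CCND3. In SAL the order was the same except that CCND1 (64.9 ± 36.6 CPM per kb) stood before CCNB1 (53.4 ± 21.0), a difference within their SDs. With the length of the longest transcript, CDK4 stood before CCNA2 in both groups, and in DMSO only CDK1 and CCNB1 differed by more than the larger SD. The merged exons include bases shared with genes on the other strand, with the largest shares in CDK4 (44.2%), CCNE2 (37%) and CDK2 (14.5%). The lengths were not adjusted for this, so the levels per kb and the places of these genes are uncertain.

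The regulators around these complexes were described with lists written from general knowledge, but chosen with earlier results of these data known. Their counts therefore describe these data and are not independent of them. Of 9 genes that switch CDKs on or off or bind them, 8 were down-regulated (9.37% of all genes tested), with a median of -0.61 on the log2 scale. They included both the activating phosphatases of the CDC25 family and the inhibitory kinases WEE1 and PKMYT1, so the list holds opposed activities. CKS2, a small CDK-binding subunit, had a log2 fold change of -0.64 (edgeR adjusted p = 0.000230), and WEE1 had -0.68 (adjusted p = 0.00111), with groups that did not overlap. MNAT1, which assembles the CDK-activating kinase, had 0.11 (adjusted p = 0.509). All 8 mitotic kinases were down-regulated DEGs, with a median of -0.85, among them the centrosome kinase NEK2 (-1.10, adjusted p = 9.51e-06) and the checkpoint kinase BUB1B (-0.92, adjusted p = 1.33e-05). Without replicate 3, 1 of the 9 switch genes and 6 of the 8 mitotic kinases were down-regulated DEGs, against 483 of all 16992 genes then tested. Without the block none of either list was a DEG. With DESeq2, 5 of the 9 switch genes were down-regulated DEGs, against 950 of all 16835 genes tested.

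Of 20 genes of the RB, E2F and DREAM group, which controls transcription of many cell cycle genes, 10 were down-regulated (9.37% of all genes tested). None rose past the threshold (11.5% of all genes tested), and the median log2 fold change was -0.43. RBL1, which encodes the RB relative p107, had -0.94 (adjusted p = 1.07e-05) and the activator MYBL2 had -0.93 (adjusted p = 2.37e-05). RB1 itself had 0.02 (adjusted p = 0.915). Of 12 genes that carry out or restrain the destruction of cyclins, 4 fell and 1 rose past the threshold (median -0.19). Of all genes tested, 9.37% were down-regulated and 11.5% up-regulated DEGs. The list holds opposed activities, also among the 4 that fell. UBE2C, the ubiquitin-conjugating enzyme of the anaphase-promoting complex, fell by 1.07 on the log2 scale (adjusted p = 4.30e-06) and SKP2, an F-box protein, by 0.74 (adjusted p = 5.64e-05, groups without overlap). A further F-box gene, FBXO31, whose product directs the degradation of cyclin D1, rose by 0.41 (adjusted p = 0.0263), and this call was lost with DESeq2 (adjusted p = 0.136), without replicate 2 (adjusted p = 0.0724) and without replicate 3 (adjusted p = 0.209). The counts of down-regulated DEGs without replicate 3 were 7 of 20 and 4 of 12, against 483 of all 16992 genes then tested.

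Among 7 CDK inhibitor genes, 1 was an up-regulated DEG and none was down-regulated (median log2 fold change -0.04). Over all genes tested, 11.5% were up-regulated and 9.37% down-regulated DEGs, so this count does not set the list apart. CDKN1C, which encodes p57, had 4, 18 and 4 counts in DMSO and 12, 55 and 17 in SAL. It was low in every library, SAL replicate 2 was the highest, and the gene passed the filter on low counts through the SAL libraries, where it is high. With at least 10 counts required in every library it was not tested, and none of the 6 inhibitor genes then left was up-regulated. Its log2 fold change was 1.501 (SE 0.37, edgeR adjusted p = 0.00874), which lost its call with DESeq2 (adjusted p = 0.0643), without replicate 2 (adjusted p = 0.0520) and without replicate 3 (adjusted p = 0.0888). CDKN1A and CDKN1B, which encode p21 and p27, had 0.08 and -0.13 (adjusted p = 0.675 and adjusted p = 0.463).

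Of 14 other cyclins tested (17 listed), 3 fell and 1 rose past the threshold, with a median of -0.12. Of 14 other CDKs tested (15 listed), 1 was down-regulated and 1 up-regulated, with a median of 0.02. Over all genes tested, 9.37% were down-regulated and 11.5% up-regulated DEGs, shares that the counts of the other CDKs did not exceed. CCND2, the remaining D-type cyclin, was too low to be tested. CDK6, the alternative partner of the D-type cyclins, had 12.3, 30.1 and 35.9 CPM in DMSO and 29.2, 54.1 and 98.9 CPM in SAL. Each SAL library was above its partner, although SAL replicate 1 lay below DMSO replicates 2 and 3. Its log2 fold change was 1.19 (SE 0.13, edgeR adjusted p = 9.75e-06), opposite in sign to that of CDK4. The mediator kinase CDK8 fell by 0.46 (adjusted p = 0.00368) while its cyclin, CCNC, rose by 0.36 (adjusted p = 0.0253). CCNF and CCNH had -0.68 and -0.42 (adjusted p = 0.00169 and adjusted p = 0.00395), and CCNI, named after its values had been seen, -0.45 (adjusted p = 0.00983). The calls of CDK8, CCNC, CCNF and CCNH were lost without replicate 3 (adjusted p = 0.108, 0.109, 0.0727 and 0.152), that of CCNC also with DESeq2 (adjusted p = 0.125), without replicate 1 (adjusted p = 0.0528) and without replicate 2 (adjusted p = 0.120), and that of CDK6 was kept without each replicate in turn. None of the 14 other cyclins was a DEG without replicate 3, where 483 of all 16992 genes were down-regulated and 750 up-regulated DEGs. The proliferation markers MKI67, PCNA and TOP2A had log2 fold changes of -0.49, -0.69 and -1.02, and MKI67 lost its call without replicate 3 (adjusted p = 0.0980).

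**Figure D5:**
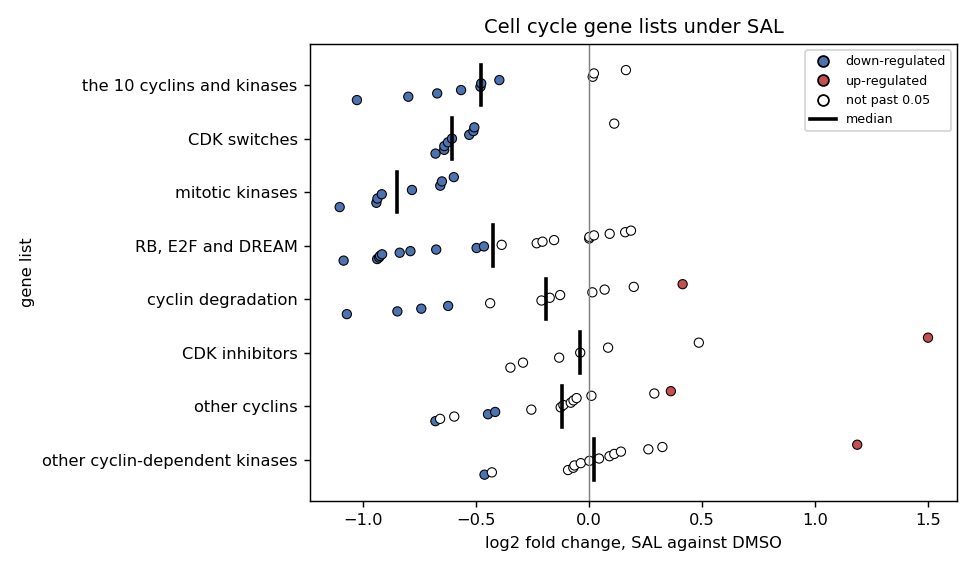
Log2 fold change of SAL against DMSO (horizontal axis) for each gene tested in the 10 cyclins and kinases and in 7 further lists, blue for down-regulated and red for up-regulated DEGs, white for genes not past the threshold, with a bar at the median. All 8 mitotic kinases and 8 of the 9 CDK switch genes are blue, and CDK6 and CDKN1C stand apart on the right.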

How the data were processed

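The values are raw counts per gene symbol that the authors deposited for 6 C4-2 libraries (total RNA, stranded SMARTer kit). Trimmed first reads were aligned to hg19 by the authors (TopHat2 2.1.0), who counted exon reads with HTSeq 0.11.2 and gencode v19, without regard to strand. In the counting mode the study names (intersection-nonempty), a read lying only on exon bases shared by overlapping genes is counted for none of them. A read from the other strand that lies on the exons of a single gene is counted for that gene. Groups and replicate numbers come from the titles. From the counts, 523 rRNA symbols were removed, after the study's methods, and filterByExpr left 16835 genes. TMM scaling and edgeR 4.0.16 (quasi-likelihood test, robust, replicate block, R 4.3.3) gave log2 fold changes, standard errors (from the size of the log2 fold change and the square root of F) and adjusted p-values. Deviations of same-numbered libraries from their group means correlated at 0.89, 0.86 and 0.74, and the study used a paired test, so the numbers pair the libraries. Pair changes use log2 CPM with a prior count of 2.

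The members and lists were chosen with earlier results of these data known. Named genes were the members, in each list the 2 down-regulated and 2 up-regulated genes with the smallest adjusted p, check genes (KLK3, FKBP5, TMPRSS2, MKI67, PCNA, TOP2A), genes overlapping members, and the 5 genes nearest in pattern to CDK1 and to CCND1. By this rule the luminal markers KRT8 and KRT18, with log2 fold changes of 2.45 and 1.71, are also named. MNAT1, PKMYT1, the CDC25 family, RB1, CDKN1A, CDKN1B, CCND2 and CCNI fall outside it and were picked once their values were known. Another check gene is not reported here. Of the genes the annotation places over member exons, those without a symbol were not matched. Positions, overlaps and exon lengths are from GRCh37 with GENCODE v44, newer than the annotation counted. Alternatives included DESeq2 1.42.0, other scalings and filters, and each replicate left out. The scripts were first tested on simulated counts. Rows that name no gene were left out, with reads outside any annotated exon (introns included) at 24.0% to 48.3% of all tallied reads per library.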

Additional observations from a re-analysis of the deposited data

How the results depend on the processing

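The count of 7 down-regulated members stayed within 1.5 times under DESeq2, DESeq2 size factors, upper-quartile scaling, other filters, rRNA genes kept, mitochondrial genes removed, no robust estimation, adjustment for GC and exon length (with a value for 83.2% of genes tested) and an adjusted p under 0.01, with 5 to 7 members. It was 0 with no replicate block, 1 when the log2 fold change also had to reach 1 in size, and 3 to 7 with each replicate left out, 3 without replicate 3, where fewer libraries were used. No member was up-regulated under any of these. With no replicate block, every call named for the members, the lists and the genes overlapping members was lost but that of FKBP5. The calls of GSTCD and USP1, named below, were not checked under other settings. The 7 down-regulated members kept their sign under all 13 settings of the fit. CCND3 and CCNE1, close to 0, turned to -0.027 and -0.022 with upper-quartile scaling and to -0.031 and -0.0061 when corrected for GC content and gene length. With each replicate left out, CCND3 ranged from -0.10 to 0.22 (-0.10 and -0.07 without replicates 1 and 2), CCNE1 from -0.031 to 0.069 (-0.031 without replicate 1) and PMEL from -0.27 to 0.68 (-0.27 without replicate 2). The log2 ratio of CDK1 to CDK2 ranged from -0.20 to 0.053 and that of CCND1 to CCND3 from -0.036 to 0.26, both reversed without replicate 3, and those of CCNB1 to CCNB2 and CCNE2 to CCNE1 kept their sign. Over all genes, 1931 up-regulated and 1577 down-regulated DEGs became 18 and 3 with no replicate block, 1290 and 950 with DESeq2, 1234 and 876 at an adjusted p under 0.01, 541 and 345 when the change had to reach 1 in size, and 750 and 483 without replicate 3. Upper-quartile scaling turned the balance, with 1662 up-regulated and 1868 down-regulated. With labels permuted over all libraries the exact p of the 4 ratios was 0.4 to 0.9. With the longest transcript as length, 2 genes changed places in the order of levels. The causes were not tested.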

Other observations

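The genes whose pattern over the 6 libraries was nearest to a member were ranked by the root mean square difference of log2 CPM after each gene was centred on its own mean, with no test. For CDK1 these were RP3-486I3.7 (0.071), ECT2L (0.084), RP11-119N19.1 (0.089), GSTCD (0.094) and USP1 (0.094, a deubiquitinase of DNA repair), against a median of 0.76 over all genes tested. GSTCD and USP1 were down-regulated DEGs, at -0.64 and -0.51 on the log2 scale (edgeR adjusted p = 0.00145 and 0.00131, in this order), and the other 3 were not DEGs. The members nearest to CDK1 were CCNA2 (0.31), CCNB1 (0.34) and CCNB2 (0.39), and the farthest was CCND1 (1.36). For CCND1 the nearest were MCM3AP, ZNFX1, KPNA6, KMT2D and PVR, at 0.051 to 0.057 against a median of 0.94. These 5 changed by 0.06 to 0.14 and none was a DEG. The nearest members were CCND3 (0.34) and CCNE1 (0.38), and the farthest was CCNE2 (1.79). All these distances rest on 6 libraries whose levels differ mainly by replicate number.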
